A study of Solanum lycopersicum with 12 samples.

Results

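Terpene synthases make the volatile terpenes of tomato leaves, and 4 of their genes were followed here: *TPS5* (*Solyc01g105890*, linalool synthase), *TPS46* (*Solyc03g006550*, geranyllinalool synthase), and the sesquiterpene synthase genes *TPS9* (*Solyc06g059885*) and *TPS12* (*Solyc06g059930*). They were chosen by name and identifier, not by their values, although results of these data were known when the list was made. Of the 4 genes, 3 have a row among the 34075 genes of the count tables, and all 3 passed the filter that left 18200 genes for testing. *Solyc06g059885* has no row in any of the 12 tables, so *TPS9* was not analysed here. The tomato entries of RefSeq (assembly SLM_r2.1) list *TPS5* under the symbol *MTS1* on chromosome 1, *TPS9* under *SSTLE1* and *TPS12* under its own symbol, both on chromosome 6, while the name *TPS46* had no match. RefSeq does not carry the Solyc identifiers, so these matches are by name only.

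The study asked how tomato responds to the leaf miner *Tuta absoluta*, whose larvae feed inside the leaf. Plants of cultivar Better Bush were grown without soil in a growth chamber. Infested plants carried 6 larvae each, placed on the terminal leaflets, and control plants went through a mock placement. The attacked leaflets, freed of larvae, and the matching leaflets of control plants were taken after 5 h or 24 h, which gives 4 groups of 3 RNA-seq libraries, named below by treatment and time. The labels name 6 plants per treatment but do not say which plants entered which library, so the p-values measure only the spread between these libraries, which may be partly technical.

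Terpene synthases convert prenyl diphosphates into terpenes. Linalool synthase makes a monoterpene alcohol, geranyllinalool synthase makes the diterpene alcohol from which a volatile homoterpene is formed, and sesquiterpene synthases act on farnesyl diphosphate. *TPS9* encodes germacrene C synthase, and *TPS12* encodes the enzyme of β-caryophyllene and α-humulene. Tomato leaves hold much of their stored terpene in glandular trichomes, and leaf terpenes are known as airborne cues for herbivores and their enemies. In whole leaflets, fewer cells of a type and less RNA per cell cannot be told apart.

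The libraries held between 19655669 and 28209033 counts (median 26435432), so that 3 counts correspond to 0.0959 to 0.167 counts for each 1000000 counted (CPM). CPM values below are relative to these totals. The infestation labels were checked on 11 proteinase inhibitor genes, a wounding response that the study picked on these same samples. Their summed level was 30.7 to 97.3 CPM in the 6 control libraries, 1394 to 4558 CPM in infested 5 h and 8474 to 29008 CPM in infested 24 h. All 11 were up-regulated at both times. Infested 24 h replicate 2 had the 8474 CPM and was the lowest library of its group in all 11 genes, against 35.9% of all tested genes. The leaf label was not checked against marker genes.

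*TPS5*, the linalool synthase gene, was up-regulated at both times. After 5 h, the control libraries 1, 2 and 3 held 1.74, 1.83 and 3.79 CPM and the infested libraries 22.8, 51.8 and 39.3 CPM. The groups lay far apart, the lowest infested library being 6.00 times the highest control. The means were 2.46 ± 1.16 CPM in controls and 38.0 ± 14.6 CPM in infested leaflets (SD, n = 3 each), a 15.5-fold ratio. The log2 fold change (log2FC, infested minus control) was 3.95 with a standard error of 0.80 (edgeR quasi-likelihood test, Benjamini-Hochberg adjusted p = 0.00650).

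After 24 h, *TPS5* stood at 1.27, 1.12 and 1.96 CPM in the controls and at 44.5, 2.30 and 35.9 CPM in the infested libraries. The groups did not overlap, but infested replicate 2 was only 1.17 times the highest control, whereas replicates 1 and 3 lay in the range of the 5 h infested leaflets. Counts behind these values were 36, 29 and 44 in controls and 1187, 72 and 998 in infested leaflets. The means were 1.45 ± 0.447 CPM and 27.5 ± 22.3 CPM (SD, n = 3 each), a ratio of 19.0. The log2FC was 4.25 with a standard error of 0.83 (edgeR adjusted p = 0.00385), and 4.81 when infested 24 h replicate 2 was left out (adjusted p = 2.21e-05). The library with the lowest *TPS5* was also the one with the lowest proteinase inhibitor sum at 24 h. After 5 h, replicate 1 was lowest and replicate 2 highest in both, whereas at 24 h the highest library was replicate 1 for *TPS5* and replicate 3 for the inhibitor sum. The part of the strength of infestation in the spread of *TPS5* was not tested.

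*TPS46*, the geranyllinalool synthase gene, gave no call after 5 h. Its level was 0.910, 1.14 and 3.22 CPM in the controls and 1.63, 5.32 and 3.01 CPM in the infested libraries. These groups overlap, since control replicate 3 exceeded infested replicates 1 and 3. The log2FC was 0.92 with a standard error of 0.85 (edgeR adjusted p = 0.567).

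After 24 h, *TPS46* was up-regulated, close to the threshold. The controls held 2.26, 0.0775 and 0.802 CPM, or 64, 2 and 18 counts, and the infested libraries 13.3, 4.22 and 2.69 CPM, or 354, 132 and 75 counts. All infested libraries lay above all controls, with infested replicate 3 only slightly above control replicate 1 and infested replicate 1 far above the rest. The means were 1.05 ± 1.11 CPM and 6.72 ± 5.71 CPM (SD, n = 3 each), and the log2FC was 2.66 with a standard error of 0.88 (edgeR adjusted p = 0.0458). The call was lost when any of 8 of the 12 libraries was left out in turn. Leaving out infested 24 h replicate 1 gave a log2FC of 1.73 (adjusted p = 0.205), leaving out control 24 h replicate 2, the library with 2 counts, gave 2.11 (adjusted p = 0.0835), and leaving out control 24 h replicate 3 gave 2.50 (adjusted p = 0.127). The other 5 were infested 5 h replicates 1, 2 and 3 and control 5 h replicates 1 and 2, without which the log2FC stayed at 2.66 and the adjusted p rose to between 0.0513 and 0.0611.

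*TPS12*, the one sesquiterpene synthase gene with a row, passed no test. After 5 h, its level was 1.46, 0.367 and 1.63 CPM in controls and 2.41, 2.08 and 1.504 CPM in infested leaflets. Infested replicate 3 fell below control replicate 3, so the groups overlap, and the log2FC was 0.80 with a standard error of 1.07 (edgeR adjusted p = 0.717).

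After 24 h, *TPS12* was read at 0.423, 0.581 and 5.88 CPM in controls and at 0.225, 0.0959 and 2.12 CPM in infested leaflets. In both groups, replicate 3 stood far above the other 2 libraries, whose counts were only 12 and 15 in controls and 6 and 3 in infested leaflets. The log2FC was -1.48 with a standard error of 1.09 (edgeR adjusted p = 0.356). A single library set even its sign. When control replicate 3 was left out, it was 0.69 (adjusted p = 0.713), and when infested replicate 3 was left out it was -3.81 (adjusted p = 0.0498), just past the threshold. No direction is therefore given for *TPS12*.

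**Figure D1:**
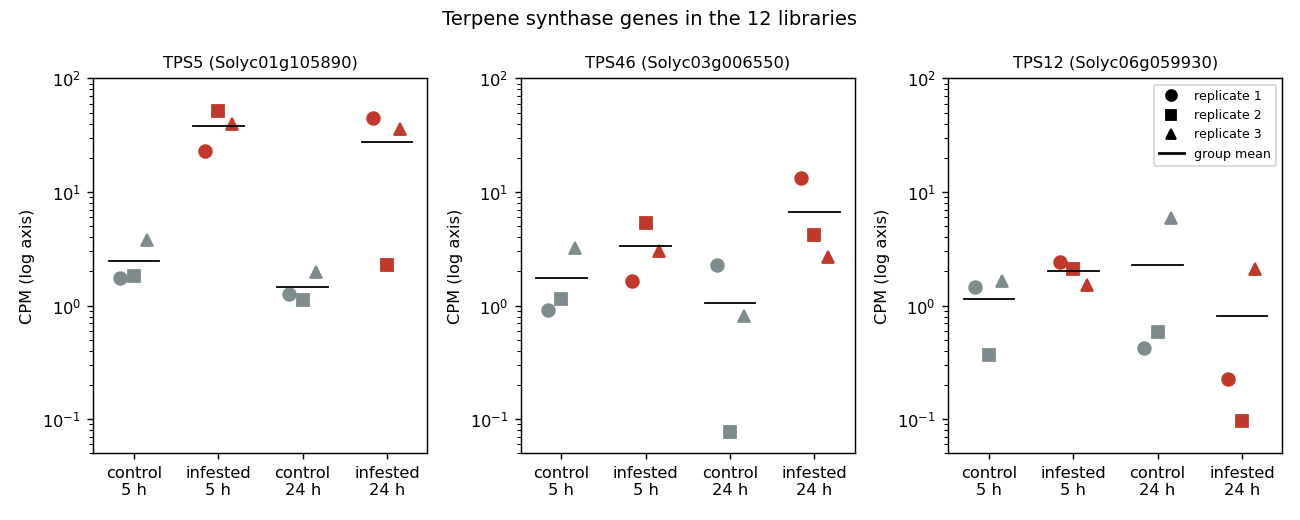
Level of *TPS5*, *TPS46* and *TPS12* in CPM on a log axis in each of the 12 libraries, with 3 libraries per group (circle, square and triangle for replicates 1, 2 and 3) and the group mean as a line. The infested libraries of *TPS5* sit between 22.8 and 51.8 CPM after 5 h, and infested 24 h replicate 2 sits at 2.30 CPM.

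Read as counts over the list, 1 of the 3 genes was up-regulated after 5 h and 2 of 3 after 24 h, and none was down-regulated. Over all tested genes, 6.94% were called up at 5 h and 11.8% at 24 h, and 5.59% and 12.5% were called down. With 3 genes, these counts say no more than the single tests do. The groups did not overlap for 1 of 3 genes at 5 h and 2 of 3 at 24 h, against 35.9% and 36.4% of all tested genes in either direction. The median log2FC was 0.92 at 5 h and 2.66 at 24 h for the 3 genes, and -0.03 and 0.02 for all tested genes. Exact two-sided permutation tests of the CPM gave p = 0.1 for *TPS5* at both times and for *TPS46* at 24 h, which is the smallest value that 3 against 3 libraries allow.

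**Figure D2:**
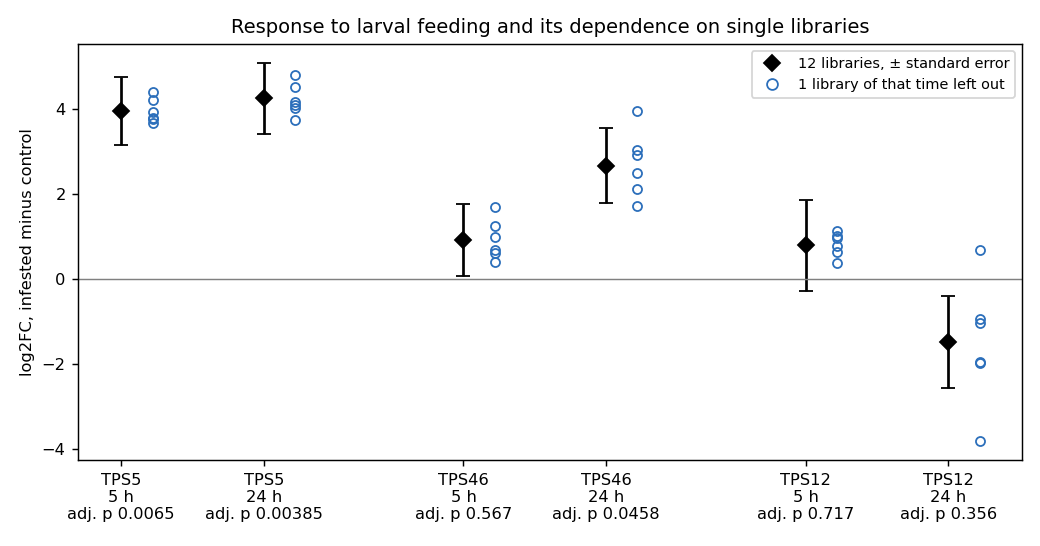
The log2FC of infested against control leaflets for each gene and time (diamonds, with the standard error as bars, from 12 libraries) beside the values with 1 library of that time left out (open circles). The circles of *TPS5* stay between 3.66 and 4.81, those of *TPS46* at 24 h reach from 1.73 to 3.96, and those of *TPS12* at 24 h lie on both sides of 0.

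The 2 responses were set against each other gene by gene. The log2FC at 24 h minus that at 5 h was 0.30 for *TPS5* (standard error 1.07, edgeR adjusted p = 0.921), 1.74 for *TPS46* (standard error 1.20, adjusted p = 0.508) and -2.28 for *TPS12* (standard error 1.53, adjusted p = 0.491). None of the 3 passed, also at an unadjusted p of 0.05, and neither edgeR's likelihood ratio test nor DESeq2 called one. Over all tested genes, 2.16% were called. The call of *TPS46* at 24 h and its absence at 5 h therefore do not show that its response differed between the times. With standard errors above 1 on the log2 scale, differences of this size were not resolved by these libraries.

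The controls alone showed no called change from 5 h to 24 h in these genes, whereas 27.7% of all tested genes were called. The log2FC of control 24 h against control 5 h was -0.77 for *TPS5* (edgeR adjusted p = 0.544), -0.73 for *TPS46* (adjusted p = 0.592) and 0.97 for *TPS12* (adjusted p = 0.549). Here too 0 of 3 had an unadjusted p below 0.05, and the likelihood ratio test and DESeq2 called 0. The value of *TPS12* was -1.196 without control 24 h replicate 3. In order of group mean, *TPS5* ran from control 24 h over control 5 h and infested 24 h to infested 5 h, and the ranges of neighbours in this order overlap, those of control 5 h and infested 24 h through infested 24 h replicate 2 alone. *TPS46* was lowest in control 24 h, followed by control 5 h, infested 5 h and infested 24 h, and each neighbouring pair overlaps in this order. For *TPS12*, the lowest mean was that of infested 24 h, and control 5 h, then infested 5 h and then control 24 h followed, again with an overlap at every step.

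Tomato terpene synthase genes often lie in clusters, so the genes whose identifier number lies within 100 of a member were examined. Next to the 4 members there are 59 such genes, of which 31 were tested. After 5 h, 4 were up-regulated and 2 down-regulated, and after 24 h 5 were up-regulated and 1 was down-regulated. As a share of 31, these 6 calls lie above the 12.5% of all tested genes at 5 h and below the 24.3% at 24 h. The shares were not compared by a test. The sources used here give no annotation for these identifiers, so they are named by identifier only. By position, RefSeq lists *TPS3* at -2, *MTS2* (*TPS4*) at -1 and *TPS7* at 2 protein-coding genes from *TPS5*. Without Solyc identifiers in RefSeq, these names could not be tied to the genes below.

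At 5 h, the 2 largest of these responses belonged to neighbours of *TPS5*, which were also up-regulated at 24 h. *Solyc01g105920* held 8.90, 8.44 and 8.48 CPM in the 5 h controls and 47.6, 89.3 and 73.2 CPM in the 5 h infested libraries, and its log2FC was 3.02 ± 0.36 (with the standard error; adjusted p = 0.000209 by edgeR). After 24 h, it stood at 8.68, 8.99 and 7.35 CPM against 71.4, 24.7 and 75.3 CPM, with a log2FC of 2.77 ± 0.35 (adjusted p = 0.000477). Its lowest infested 24 h library was replicate 2, as for *TPS5*, but that library still lay well above the controls.

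*Solyc01g105900*, the next identifier after *TPS5*, had lower counts. It was read at 0.672, 0.652 and 0.938 CPM in the 5 h controls and 4.01, 5.68 and 5.18 CPM in infested leaflets (log2FC 2.71, edgeR adjusted p = 0.000589). At 24 h, the values were 0.423, 0.349 and 0.446 CPM against 6.03, 2.37 and 5.93 CPM (log2FC 3.54, adjusted p = 0.000279). Both genes were called under every leave-one-out fit at both times. Over the 12 libraries, the log2 CPM of *TPS5* had a Pearson r of 0.951 with *Solyc01g105920* and of 0.946 with *Solyc01g105900*. These points share their libraries and the contrast of infested and control. How the authors' counting assigned reads from near-identical genes is not stated in the sources, so shared reads cannot be told apart from separate transcripts.

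On the other side of *TPS5*, *Solyc01g105870* and *Solyc01g105880* had at most 6 counts in any library and were not tested. Of the 8 genes tested among the 18 near *TPS5*, only *Solyc01g105820* was also called, at 24 h (log2FC 0.66, edgeR adjusted p = 0.0491). Its infested replicate 3, with 8.08 CPM, lay below control replicate 2, with 8.72 CPM, and the call was lost in 10 of 12 leave-one-out fits, all but those that dropped infested replicate 3 or control replicate 2 of 24 h.

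**Figure D3:**
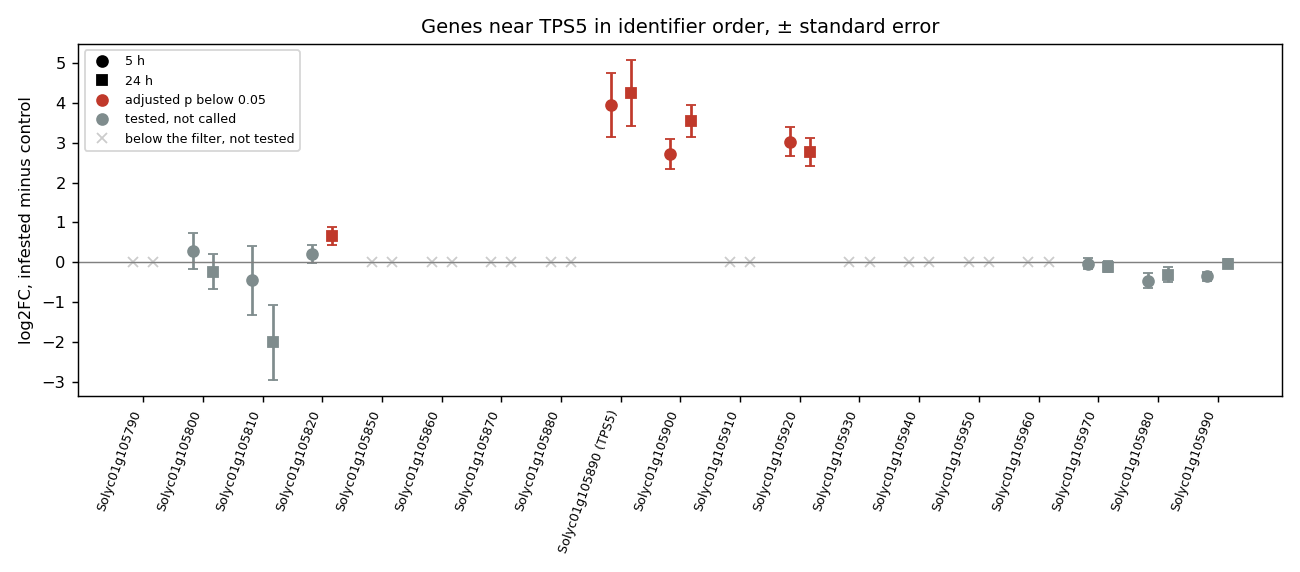
The log2FC of *TPS5* and of the genes near it, in the order of their identifiers, after 5 h (circles) and 24 h (squares), with the standard error as bars, called genes in red and crosses for genes below the filter. *TPS5*, *Solyc01g105900* and *Solyc01g105920* stand between 2.71 and 4.25 at both times, and the other tested genes between -2.01 and 0.66.

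Near *TPS46*, 16 of 25 genes were tested. *Solyc03g006620* was up-regulated at 24 h, from 1.66, 1.90 and 1.47 CPM in controls to 27.5, 3.64 and 5.57 CPM (log2FC 2.86, edgeR adjusted p = 0.00589). As for *TPS46*, infested replicate 1 was far above the other 2, and the log2FC was 1.47 when the most influential library was left out, with the call kept in all 12 such fits. *Solyc03g006540* was down-regulated at 5 h, from 18.8, 17.4 and 17.1 CPM to 10.8, 3.88 and 5.46 CPM (log2FC -1.40, adjusted p = 0.00954). *Solyc03g006500* was called at 5 h (log2FC 0.69, adjusted p = 0.0125), a call that rested on infested replicate 3 and control replicates 1 and 3 of that time (adjusted p with each left out in turn at most 0.0611). *Solyc03g006510* was called at 24 h (log2FC 0.50, adjusted p = 0.0363), and this was lost in 7 of 12 leave-one-out fits, which dropped replicates 1 and 3 of infested 24 h, replicates 2 and 3 of control 5 h, and each of the 24 h controls (highest adjusted p = 0.123).

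Around *TPS9* and *TPS12*, whose identifiers lie close together, 2 genes were called. *Solyc06g059870* rose after 5 h from 7.79, 12.5 and 15.5 CPM to 41.3, 44.3 and 29.4 CPM (log2FC 1.69, edgeR adjusted p = 0.00114). At 24 h, its log2FC was 0.73 (adjusted p = 0.0534), with 23.6, 23.8 and 14.5 CPM in controls and 31.7, 38.7 and 32.3 CPM in infested libraries. These groups do not overlap, yet edgeR's quasi-likelihood test was not passed. On the same 12 libraries the gene was called by the likelihood ratio test (adjusted p = 0.0309), by DESeq2 (0.0218), with DESeq2 size factors (0.04997), with the filter dropped (0.0493) and with scaling by totals alone (0.0236), and leaving out control 5 h replicate 1 or 3 also gave a call (0.0309 and 0.0473). *Solyc06g059800* was down-regulated at both times (log2FC -0.66 and -0.54, adjusted p = 0.0143 and 0.0240). At 5 h this rested on infested replicates 2 and 3 and on control replicate 3, each of which ended the call when left out (highest adjusted p = 0.0750). The same held at 24 h for infested replicates 1 and 3 and control replicates 1 and 2 (highest adjusted p = 0.0975).

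The genes whose levels followed those of a member most closely over the 12 libraries were ranked by Pearson r of log2 CPM, as a description. For *TPS5* they were *Solyc05g053010* (r = 0.988), *Solyc01g095960*, which the study annotates as a diacylglycerol O-acyltransferase (r = 0.986), and *Solyc08g061610* (r = 0.979). Infested 24 h replicate 2 was the lowest infested library in all 3, with 3.23, 0.256 and 110 CPM, while replicates 1 and 3 of that group lay at 19.2 and 23.9 CPM, 25.4 and 16.2 CPM, and 199 and 238 CPM. A low value there follows from choosing genes by their likeness to *TPS5* over these libraries. Without such a choice, that library was the lowest of its group in 64.1% of the 2139 genes up-regulated at 24 h.

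For *TPS46* the closest genes were *Solyc10g085060* (r = 0.912), *Solyc01g094960*, named MPK5, a mitogen-activated protein kinase, in the study (r = 0.900), and *Solyc12g009970* (r = 0.886). They moved far less than *TPS46*, with log2FC at 24 h of 0.74, 0.75 and 0.75 (edgeR adjusted p = 0.0448, 0.0317 and 0.114). *Solyc10g085060* and *Solyc01g094960* were thus called up at 24 h. For *TPS12* they were *Solyc09g090500* (r = 0.958), *Solyc08g005677* (r = 0.949) and *Solyc03g111815* (r = 0.943). Each was highest in control 24 h replicate 3, at 14.2, 6.95 and 93.8 CPM, as *TPS12* was, which the choice by likeness favours, and none was called at 5 h or 24 h. That library held at least 5 times the higher of the other 2 control 24 h libraries in 64 tested genes, against 19 for replicate 1 and 47 for replicate 2. The members were less alike, with r = 0.644 between *TPS5* and *TPS46*, 0.240 between *TPS5* and *TPS12*, and -0.213 between *TPS46* and *TPS12*.

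**Figure D4:**
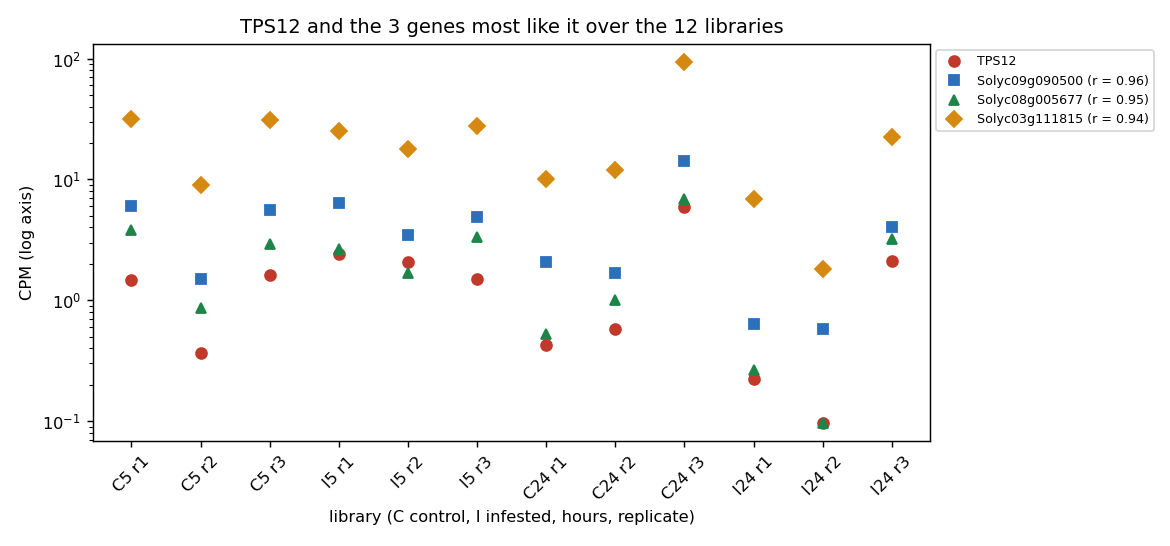
Level of *TPS12* and of the 3 genes most like it, in CPM on a log axis, in each of the 12 libraries (C control, I infested, then hours and replicate). All 4 are highest in control 24 h replicate 3, where *TPS12* reaches 5.88 CPM.

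Terpene synthases depend on the supply of prenyl diphosphates, which come from the mevalonate route in the cytosol and from the methylerythritol phosphate route in plastids. The study named 5 genes of this supply on these same samples, so their direction is no independent evidence. After 5 h, 5 of 5 were up-regulated (median log2FC 1.84), and after 24 h 4 of 5 (median 0.57), against 6.94% and 11.8% of all tested genes. Isopentenyl diphosphate isomerase (*Solyc05g055760*) had a log2FC of 1.45 at 5 h and 1.04 at 24 h (edgeR adjusted p = 0.000141 and 0.00115). Mevalonate kinase (*Solyc01g098840*) had 1.84 and 1.09 (adjusted p = 0.000925 and 0.0125), with overlapping groups at 24 h. The calls of both genes were kept in all 12 leave-one-out fits at each time. *FPPS* (*Solyc12g015860*), which makes the substrate of sesquiterpene synthases, went after 5 h from 72.3, 59.8 and 67.4 CPM to 206, 255 and 200 CPM. At 24 h, it stood at 46.1, 45.3 and 47.5 CPM against 78.8, 46.7 and 72.4 CPM, with infested replicate 2 inside the control range (log2FC 0.51, edgeR adjusted p = 0.0495, with the call kept only in the leave-one-out fits without infested 5 h replicate 2 or infested 24 h replicate 2). *HMGR* (*Solyc02g082260*), HMG-CoA reductase of the mevalonate route, had a log2FC of 2.22 at 5 h (adjusted p = 0.000935) and of 0.48 at 24 h (adjusted p = 0.321), which became 1.11 and a call without control 24 h replicate 3 (adjusted p = 0.00658). The call of *HMGS* (*Solyc08g080170*), HMG-CoA synthase, at 24 h (log2FC 0.57, adjusted p = 0.0295) rested on replicates 2 and 3 of both 24 h groups, each of which ended it when left out (highest adjusted p = 0.0838).

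In the plastid route, 8 identifiers were listed and all were tested, with 2 up and 1 down at 5 h, and 1 up and 2 down at 24 h. The shares of all tested genes were 6.94% up and 5.59% down at 5 h, and 11.8% and 12.5% at 24 h. Only 3 of the 8 identifiers are annotated in the sources used here. *Solyc01g067890*, annotated by the study as deoxyxylulose-5-phosphate synthase, the first enzyme of that route, was down-regulated at both times (log2FC -0.74 and -1.19, edgeR adjusted p = 0.00735 and 0.000489). Its direction was opposite to that of *TPS5* at both times, whereas the other annotated identifiers, given next, had a positive log2FC at both times. *Solyc11g010850*, which the study places under isoprenoid biosynthesis, was up-regulated at 5 h (log2FC 2.90, adjusted p = 0.00253) and had a log2FC of 0.95 at 24 h (adjusted p = 0.174), where dropping infested replicate 2 or control replicate 3 gave a call (adjusted p = 0.0235 and 0.0374). *Solyc08g081570*, from the same category, was up-regulated slightly at both times (log2FC 0.55 and 0.45, adjusted p = 0.0114 and 0.0210). Leaving out infested replicate 2 or control replicate 1 ended its call at 5 h, and leaving out infested replicate 3 or one of control replicates 2 and 3 ended that at 24 h (highest adjusted p = 0.0743). The other identifier down-regulated at 24 h was *Solyc03g114340*, without annotation here (log2FC -0.43, edgeR adjusted p = 0.0380), and its groups overlapped. The count of 2 down at 24 h was kept in 5 of 12 leave-one-out fits and ran from 1 to 4.

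*MYC1* (*Solyc08g076930*), a transcription factor that the study links to type VI trichomes and terpene emission, was up-regulated at both times. After 5 h, it went from 22.7, 25.4 and 28.3 CPM to 103, 130 and 90.7 CPM (log2FC 2.08 ± 0.21, edgeR adjusted p = 7.66e-05). After 24 h, it stood at 12.3, 16.0 and 13.1 CPM in controls and 46.7, 31.8 and 58.9 CPM in infested leaflets (log2FC 1.73, standard error 0.21, adjusted p = 0.000405). Infested 24 h replicate 2 was again the lowest of its group, but *MYC1* there was still 1.99 times the highest control, whereas *TPS5* in that library was close to them. *MYC1* was the sole trichome gene examined, and it responded itself, so the number of trichomes was not measured here.

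**Figure D5:**
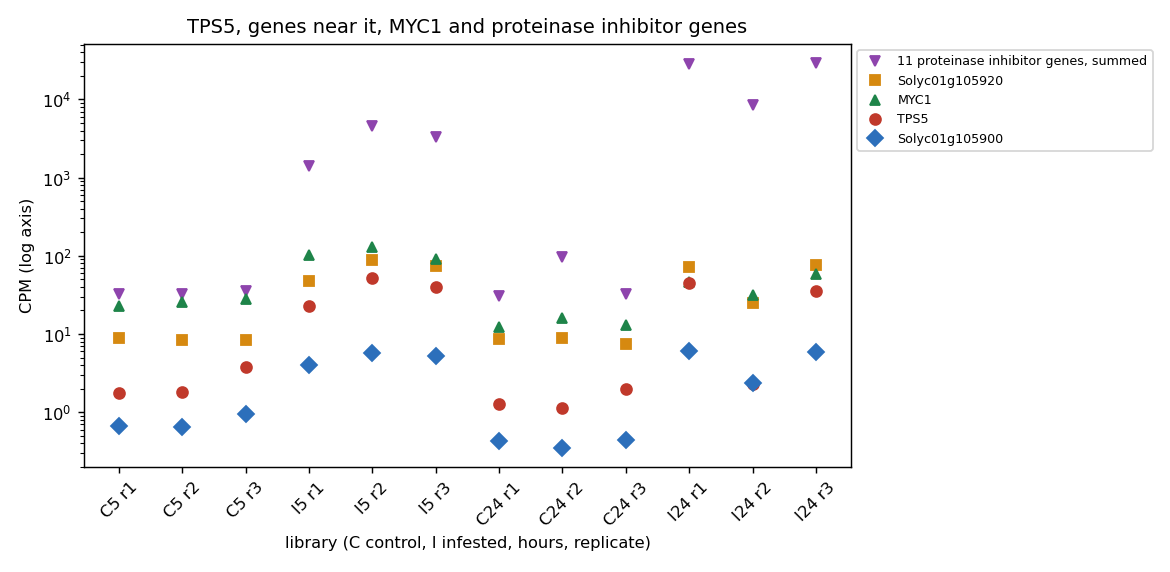
Level in CPM on a log axis of *TPS5*, *Solyc01g105900*, *Solyc01g105920*, *MYC1* and the sum of 11 proteinase inhibitor genes in the 12 libraries (C control, I infested, then hours and replicate). Infested 24 h replicate 2 is the lowest library of its group for each series, with *TPS5* at 2.30 CPM and the inhibitor sum at 8474 CPM.

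A further 17 identifiers were listed as possible terpene synthases, of which only *Solyc07g052120* is annotated with terpene synthase activity in the sources used here. Rows exist for 15, and 8 were tested, with 2 up-regulated at 5 h, and 2 up-regulated and 1 down-regulated at 24 h. Over all tested genes, 6.94% were called up and 5.59% down at 5 h, and 11.8% and 12.5% at 24 h. *Solyc07g052120* had 12, 19 and 58 counts in the 5 h controls and 10, 0 and 6 in the infested libraries, which do not overlap, but the test was not passed (log2FC -2.36, edgeR adjusted p = 0.119). That log2FC was the lowest of the 8 tested identifiers at 5 h. The likelihood ratio test and DESeq2 each called 1 of the 8 down at that time. At 24 h, the counts of *Solyc07g052120* were 95, 62 and 12 against 109, 104 and 97 (log2FC 0.78, edgeR adjusted p = 0.483). Besides *Solyc01g105920*, the gene up-regulated at both times was *Solyc02g079890*, with 3, 0 and 2 counts in the 5 h controls and 165, 416 and 46 in infested leaflets (adjusted p = 0.0129). At 24 h, it had 10, 8 and 3 counts against 269, 0 and 196 (adjusted p = 0.0294), so that infested replicate 2 had no count of it. Leaving out control replicate 2 or 3 ended its call at 5 h (highest adjusted p = 0.0589), and leaving out infested replicate 1 or 3 or any 1 of the controls ended that at 24 h (highest adjusted p = 0.0921). The gene down-regulated at 24 h was *Solyc08g005640*, from 2.33, 1.28 and 2.59 CPM to 0.262, 0.288 and 0.611 CPM (log2FC -2.40, adjusted p = 0.00402). By the likelihood ratio test and by DESeq2, 2 identifiers were called down at 24 h. *Solyc10g005410* was not called at 24 h, though its groups did not overlap (log2FC -3.415, edgeR adjusted p = 0.0572). *Solyc10g005390* fell below the filter, with 2 counts in the 5 h controls and 87 in the infested libraries, without overlap. Groups did not overlap in 35.9% of all tested genes at 5 h and 36.4% at 24 h.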

How the data were processed

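According to the labels, the deposited tables hold whole-number counts of reads per gene, 1 table per library and not normalized, which the authors made with Trimmomatic, BWA and featureCounts. Whether counting used strand, and how it handled reads of near-identical genes, the sources do not state.

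The counts were fitted with edgeR 4.0.16 in R 4.3.3. A gene had to exceed 1 CPM in 3 or more libraries, libraries were scaled by TMM (factors 0.886 to 1.245), and all 12 libraries were fitted with 1 mean per group. Contrasts were tested by the quasi-likelihood F test with Benjamini-Hochberg adjustment over 18200 genes, and called at an adjusted p below 0.05. The standard error is the log2FC divided by the square root of F, and log2FC use edgeR's default prior count. The fit was tested on data simulated from its own count model. Those data held no single libraries that stand apart, so that test does not cover their effect. DESeq2 1.42.0 and other settings were alternatives. Correlations use log2 CPM with a prior count of 2. Replicates were compared and no library was a copy of another. Floors of 3 counts cover counting error only. The members, gene lists and the rule for naming genes (members, fixed pathway genes, called genes near members, and the 3 most alike per member) were chosen with earlier results of these data known.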

Additional observations from a re-analysis of the deposited data

Results flagged for a closer look

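The response differed between 24 h and 5 h, by the test of the difference itself, in 3 of the genes examined beside the terpene synthases. They were 2 of the 5 supply genes and 1 of the 11 proteinase inhibitor genes, lists that the study picked on these same samples. The test called none of the 8 plastid identifiers, the 8 further identifiers tested or the 31 genes tested near the members. Over all tested genes, 2.16% were called in this test. For *HMGS* (*Solyc08g080170*), HMG-CoA synthase of the mevalonate route, the log2FC at 24 h minus that at 5 h was -2.03 ± 0.24 (standard error; adjusted p = 0.00803 by edgeR), and the call was kept in all 12 leave-one-out fits. For *FPPS* (*Solyc12g015860*), it was -1.22 (standard error 0.24, adjusted p = 0.0343), and for the proteinase inhibitor gene *Solyc09g084460* it was 3.82 (standard error 0.78, adjusted p = 0.0343). Both of these calls were lost in 8 of the 12 leave-one-out fits, with adjusted p up to 0.102 and 0.101. That of *FPPS* was lost without any 1 of the libraries of 5 h or without control 24 h replicate 1 or 3. That of *Solyc09g084460* was lost without any 1 of the libraries of 5 h or without control 24 h replicate 1 or 2. From 5 h to 24 h the controls alone also fell in *HMGS* (log2FC -1.35, edgeR adjusted p = 0.000117) and *FPPS* (log2FC -0.52, adjusted p = 0.0411). For *Solyc09g084460*, the control log2FC was -1.37 and was not called (adjusted p = 0.11).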

How the results depend on the processing

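The calls of *TPS5* at 5 h and 24 h were kept under every alternative run: scaling by DESeq2 size factors or by totals alone, the filter dropped or set by filterByExpr, DESeq2 or the likelihood ratio test as the test, a replicate block, the 6 libraries of one time alone, a prior count of 2, a required absolute log2FC above 1.5, and each library left out. *TPS12* fell below the filter in the 6 libraries of 24 h and has no value there. The call of *TPS46* at 24 h was lost with the replicate block (log2FC 2.72, adjusted p = 0.0611) and in the 6 libraries of 24 h (2.68, adjusted p = 0.108), where 1 of the 3 genes remained called at 24 h in place of 2. Whether the labels' replicate numbers pair the libraries is not known. Deviations from the group means had r = -0.13, -0.05 and -0.02 between same-numbered control and infested libraries at 5 h. At 24 h, these values were 0.06, 0.05 and 0.26. Differently numbered libraries ranged from -0.10 to 0.16 at 5 h and from -0.22 to 0.11 at 24 h. The block changed no other call of the 3 genes. It turned the difference of the *TPS5* responses to -0.00709.

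With each library left out, the log2FC at 24 h ran from 1.73 to 3.96 for *TPS46* and from -3.81 to 0.69 for *TPS12*, and 1 to 3 of the genes were called. The *TPS5* difference between the times ran from -0.23 to 0.84, and the change in controls from -1.995 to 0.0443 for *TPS46* and from -1.196 to 1.505 for *TPS12*. None of these differences or control changes was called. Library totals alone moved the median log2FC of all genes at 24 h from 0.02 to 0.21.

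Near the members, the 5 up-regulated genes at 24 h became 3 with the block, in the 6 libraries alone or with the log2FC limit, and the 1 down-regulated gene became 0 to 3 over the settings. The 4 up-regulated supply genes at 24 h became 2 with the block, 1 in the 6 libraries alone and 0 with the log2FC limit. In their lowest libraries, *TPS12* and *TPS46* had 3 and 2 counts, and the part of low counts in their spread was not tested.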
